A study of Mus musculus with 4 samples.

Results

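Ang, Ang4 and Ang5 are 3 of the 31053 genes in the count matrices and belong to the angiogenins, small secreted ribonucleases of the ribonuclease A family. They were picked by name with results of these data known: in an earlier comparison of 4OHT with corn oil over all cells, Ang4 had the smallest p-value, although it did not pass the adjusted threshold. The difference of the 3 genes between 4OHT and corn oil is therefore given as a description, without a test. Where in the epithelium they were expressed, and what else Ang4-positive cells expressed, did not enter that choice and was tested.

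The series asked how conditional loss of Tfap2c, the gene of the transcription factor AP-2γ, affects mammary stem cells. All 4 libraries are 3′ single-cell RNA libraries from mammary epithelial cells of FVB mice with the genotype Tfap2c fl/fl and Krt5-CreERT2, harvested at 9 weeks of age. The corn oil group (2 mice, 1 library each) received the vehicle, and the 4OHT group (2 mice, 1 library each) received 4-hydroxytamoxifen, which activates the Cre recombinase made in Krt5-expressing, mainly basal, cells. Injections began at 4 weeks, and the labels give their course as 5 days in one place and as a longer one in another. Both groups carry the floxed alleles and the Cre, and no library without Cre was analysed here.

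Angiogenin cleaves RNA weakly compared with pancreatic ribonuclease, including transfer RNA in stressed cells, and is held in check by the cytosolic ribonuclease inhibitor Rnh1. Plexin-B2, encoded by Plxnb2, has been described as a receptor. Mice carry several copies of the gene, and Ang4 is best known from Paneth and goblet cells of the gut, where its product is secreted and acts on bacteria. In the mammary gland, basal cells form the contractile outer layer, luminal progenitors secrete many defence proteins, and hormone-sensing luminal cells carry the oestrogen, progesterone and prolactin receptors.

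The 3 genes lie on chromosome 14 (GRCm38, GENCODE M21). Ang (ENSMUSG00000072115) spans chr14:51091150-51102009 on the plus strand, inside the span of Rnase4 (chr14:51091077-51106151, plus strand), with which it shares 219 exonic bases. Their last exons, which a 3′ library reads most, share 0 bases. Ang4 (ENSMUSG00000060615) spans chr14:51763878-51773590 on the minus strand and Ang5 (ENSMUSG00000053961) chr14:43957069-43963072 on the plus strand, with at most 2 exons each. The 250 bases before the start of each gene (RefSeq, GRCm38.p6) are shown. They are given because the upstream regions of Ang4 and Ang5 resemble each other while that of Ang does not. For Ang the RefSeq start differs from the GENCODE start given above. Its window ends at 51091076, directly before the GENCODE start of Rnase4 at 51091077. The region is chr14:51773591-51773840 (minus strand) for Ang4, chr14:43956819-43957068 (plus strand) for Ang5 and chr14:51090827-51091076 (plus strand) for Ang, written 5′ to 3′ with the letters TATATA in capitals.
Ang4: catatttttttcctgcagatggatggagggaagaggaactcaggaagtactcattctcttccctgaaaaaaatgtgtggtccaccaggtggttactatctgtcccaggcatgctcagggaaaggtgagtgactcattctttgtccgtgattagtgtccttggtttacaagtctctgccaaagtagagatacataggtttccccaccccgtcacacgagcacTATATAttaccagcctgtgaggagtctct
Ang5: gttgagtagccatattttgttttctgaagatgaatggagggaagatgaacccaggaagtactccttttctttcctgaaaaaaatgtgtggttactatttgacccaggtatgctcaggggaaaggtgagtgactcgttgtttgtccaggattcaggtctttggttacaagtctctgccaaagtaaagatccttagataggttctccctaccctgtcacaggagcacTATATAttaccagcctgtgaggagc
Ang: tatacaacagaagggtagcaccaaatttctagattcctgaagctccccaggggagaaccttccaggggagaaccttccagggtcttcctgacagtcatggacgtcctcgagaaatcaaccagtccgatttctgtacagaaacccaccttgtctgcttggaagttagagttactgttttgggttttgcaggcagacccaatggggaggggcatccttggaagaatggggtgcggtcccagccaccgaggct

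Aligned end to end, the Ang4 and Ang5 regions were identical at 211 bases (78.7% of the alignment), with a longest shared run of 30 bases. The Ang region matched that of Ang4 over 48.5% and that of Ang5 over 49.0% of the alignment, with longest runs of 7 and 8 bases. The letters TATATA, searched on both strands, began 29 bases before the start of Ang4 and 25 bases before that of Ang5, were not found in this window of Ang, and occurred in 5.25% of 32817 promoter windows of the same length. Neither GCCNNNGGC, the letters taken for AP-2 (13.7% of windows), nor the palindrome of an oestrogen response element (0.064%) was found in any of the 3 windows. The same held for the palindrome of a progesterone or glucocorticoid response element (0.387%). The letters TTCNNNGAA, taken for STAT factors (7.01% of windows), occurred once, in Ang4, 192 bases before its start. The whole upstream window of Ang6, which had 0 UMIs in every library, was identical to that of Ang5.

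The transcripts of Ang4 (709 bases) and Ang5 (700 bases) were 85.9% identical, with a longest shared run of 79 bases, and 0 of the 610 windows of 100 bases in Ang4 occurred in Ang5. A read of 100 bases from the Ang4 transcript thus matches Ang5 nowhere in full, but how the authors' counting treated shorter matches is not given in the sources used here. Ang and Ang4 shared a longest run of 31 bases.

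After cells with fewer than 1000 UMIs were left out, 17832 of 18223 deposited barcodes remained, between 3509 and 5420 per library. Total deposited UMI counts ranged from 17351950 to 22017878 per library, and pairs of libraries shared between 18 and 36 barcodes. Classes were set by keratins, Acta2 and 6 luminal genes, none of them a member, and comprised 7028 basal, 5629 luminal progenitor and 1168 hormone-sensing luminal cells, with 4007 cells outside them. Counting the genes of the rule, all 10 basal markers were lower, and all 11 luminal progenitor markers higher, in the luminal progenitor class than in the basal class, and all 10 hormone-sensing markers were higher in the hormone-sensing than in the luminal progenitor class. Tfap2c itself stood at 389 and 285 CPM (UMIs of the gene scaled to the total UMIs of the class in a library) in basal cells of both corn oil libraries and at 285 and 325 CPM in those labelled 4OHT. The groups overlapped, so a loss of Tfap2c transcript in basal cells was not seen in the libraries labelled 4OHT, and a 3′ count does not show whether an exon was deleted.

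Ang4 and Ang5 UMIs lay mainly in hormone-sensing luminal cells, whereas Ang UMIs lay mainly in basal cells. Of 831 Ang4 UMIs, 649 (78.1%) were in the hormone-sensing luminal class, 144 (17.3%) in luminal progenitors, 16 (1.93%) in basal cells and 22 (2.65%) outside the classes. Of 244 Ang5 UMIs, 194 (79.5%) were in hormone-sensing luminal cells and 35 (14.3%) in luminal progenitors. Of 304 Ang UMIs, 221 (72.7%) were in basal cells, 65 (21.4%) outside the classes and 4 (1.32%) in hormone-sensing luminal cells. The hormone-sensing luminal class held between 4.30% and 8.25% of the cells of a library.

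**Figure D1:**
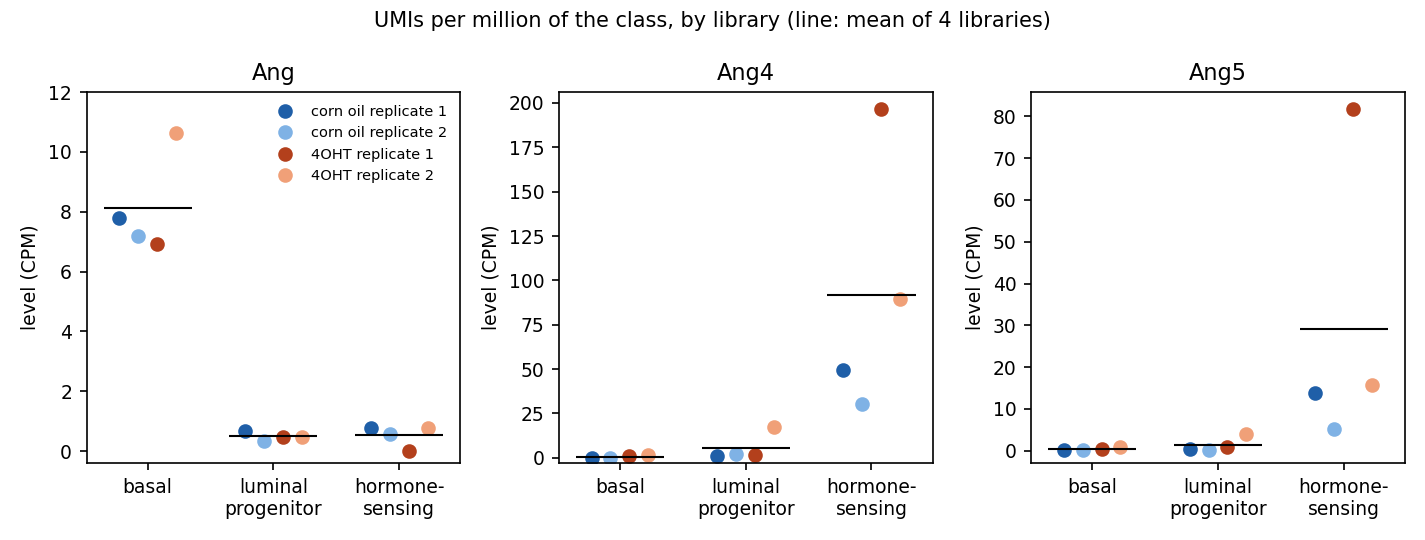
Level of Ang, Ang4 and Ang5 in CPM (y axis, linear, with a scale of its own in each panel) in 3 epithelial classes (x axis), with 1 point per library and a line at the mean of 4 libraries. Ang is highest in basal cells of all 4 libraries (6.91 to 10.6 CPM), and Ang4 (30.6 to 196 CPM) and Ang5 (5.29 to 81.8 CPM) are highest in hormone-sensing luminal cells.

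Ang4 stood at 49.3, 30.6, 196 and 89.8 CPM in hormone-sensing luminal cells of corn oil replicates 1 and 2 and 4OHT replicates 1 and 2, a mean of 91.5 ± 74.1 CPM (SD, n = 4). In luminal progenitors the 4 libraries gave 1.10, 1.98, 1.79 and 17.5 CPM (mean 5.60 ± 7.97, SD, n = 4), and in basal cells 0.124, 0, 1.01 and 1.37 CPM (mean 0.625 ± 0.668, SD, n = 4). The 0 in basal cells of corn oil replicate 2 allows up to 0.459 CPM (3 counts). The lowest hormone-sensing luminal value was above every value of the other 2 classes.

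With library as a block, Ang4 was higher in hormone-sensing luminal than in basal cells by a log2 of 7.32 (SE 0.63, edgeR quasi-likelihood test, adjusted p = 5.94e-08). This contrast was added after the data were seen, and 59.8% of the 11135 genes tested were called in it. Ang4 was lower in luminal progenitors than in hormone-sensing luminal cells (log2 -4.07, SE 0.49, adjusted p = 5.66e-06 by edgeR), where 46.4% of genes were called. It was higher in luminal progenitors than in basal cells by a log2 of 3.25 (SE 0.76, adjusted p = 0.00165 by edgeR), where 56.1% were called. With so many genes called, the call alone says little, and the size of the differences stands beside medians over all genes of -0.08, 0.02 and -0.04 in the same 3 contrasts. Ang4 also passed the filter on low counts only through its hormone-sensing luminal sums. For such a gene the choice favours a difference from that class, so calls in contrasts with that class carry little support. The difference between luminal progenitors and hormone-sensing luminal cells was -3.24 without 4OHT replicate 1 and -5.41 without 4OHT replicate 2, and that between luminal progenitors and basal cells 3.86 and 2.50. Over 13 alternatives the adjusted p of the luminal progenitor contrast with basal cells ranged from 1.97e-20 to 0.00813.

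The luminal progenitor value of Ang4 rested largely on 4OHT replicate 2, which held 109 of the 144 UMIs. A pair of its cells carried 34 and 32 of them. The first (10146 UMIs in all) had 18 Ang5 UMIs, 8 UMIs of the hormone-sensing genes Ly6d, Fxyd2 and Gpx3 and 11 of the progenitor genes Wfdc18, Csn3 and Ltf. The second (5821 UMIs) had 1 and 0 UMIs of those gene sets, so that little beyond its luminal keratins placed it in the class. Cells of the class with fewer than 3 UMIs of Wfdc18, Csn3 and Ltf held 0, 9, 2 and 55 Ang4 UMIs in the 4 libraries, against 8, 3, 13 and 54 in cells with at least 3. When only the latter were kept, an alternative added after the data were seen, Ang4 was still higher than in basal cells (log2 2.67, edgeR adjusted p = 0.00212) and lower than in hormone-sensing luminal cells (log2 -4.57, edgeR adjusted p = 1.3e-07).

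Ang5 followed the same order of classes, with 13.9, 5.29, 81.8 and 15.7 CPM in hormone-sensing luminal cells (mean 29.2 ± 35.4, SD, n = 4). Luminal progenitors gave 0.275, 0.165, 0.833 and 4.02 CPM and basal cells 0.124, 0.153, 0.337 and 0.759 CPM. Within each library the hormone-sensing luminal value was the highest. Ang5 was higher in hormone-sensing luminal than in basal cells by a log2 of 6.14 (SE 0.69, edgeR adjusted p = 1.15e-06) and lower in luminal progenitors than in hormone-sensing luminal cells (log2 -4.10, SE 0.58, edgeR adjusted p = 2.98e-05). Without 4OHT replicate 1 these were 5.15 and -2.95, and without 4OHT replicate 2 they were 7.11 and -5.88. Ang5 passed the filter on low counts only through its hormone-sensing luminal sums, so both calls carry little support. The difference between luminal progenitors and basal cells did not pass the threshold (log2 2.05, SE 0.88, edgeR adjusted p = 0.0591), it passed in 3 of 11 alternatives, and it was 1.23 without 4OHT replicate 2.

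Ang, the gene of angiogenin proper, had the opposite distribution. Basal cells of the 4 libraries gave 7.78, 7.19, 6.91 and 10.6 CPM (mean 8.13 ± 1.71, SD, n = 4), luminal progenitors 0.688, 0.330, 0.476 and 0.483 CPM and hormone-sensing luminal cells 0.771, 0.588, 0 and 0.787 CPM, from 4 UMIs in all. Every basal value was above every luminal value. Ang passed the filter on low counts only through its basal sums, so its calls in contrasts with that class carry little support. Ang was lower in luminal progenitors than in basal cells (log2 -3.67, SE 0.32, edgeR adjusted p = 8.05e-08) and lower in hormone-sensing luminal than in basal cells (log2 -3.84, SE 0.46, edgeR adjusted p = 2.64e-06). Between both luminal classes no difference was called (log2 0.17, SE 0.71, edgeR adjusted p = 0.878), and its sign reversed under 3 alternatives. With cells thinned to 2000 UMIs the fit gave 3.62, but Ang was then at 0 in hormone-sensing luminal cells of all 4 libraries, so that this value depends on the fit's prior count. Between hormone-sensing luminal and basal cells, where 27.3% of genes were called higher and 32.4% lower, Ang was lower and Ang4 and Ang5 were higher.

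Rnase4, the ribonuclease gene that overlaps Ang, was basal too, with 72.7, 76.6, 82.0 and 53.9 CPM in basal cells. It was lower in luminal progenitors (log2 -4.08, edgeR adjusted p = 1.22e-09) and in hormone-sensing luminal cells (log2 -4.43, edgeR adjusted p = 8.16e-09). Of 193 basal cells with an Ang UMI, 56 (29.0%, exact 95% interval 22.7 to 36.0%) also had an Rnase4 UMI, against 18.3% (17.4 to 19.2%) of basal cells without one, at median depths of 3529 and 3455 UMIs. By library the shares were 27.5% against 23.7%, 24.4% against 18.3%, 45.5% against 21.0% and 25.0% against 12.8%, with exact intervals of 15.9 to 41.7%, 12.9 to 39.5%, 28.1 to 63.6% and 15.0 to 37.4% for the Ang-positive cells. In both corn oil libraries this interval took in the share of the cells without Ang. Outside the epithelium, marker-defined fibroblasts had Rnase4 in 80 of 129 cells (62.0%) and Ang in 6 (4.65%), and endothelial cells had Ang in 10 of 324 (3.09%).

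Ang4 and Ang5 were not detected in endothelial cells or leukocytes at this depth. Both had 0 UMIs in the 324 endothelial cells, which allows a share of up to 0.926%, and in 69 leukocytes, where 0 allows up to 4.35%. These limits hold for cells with a UMI, not for cells that express the gene. Median depths by library were 1791 to 3199 UMIs in endothelial cells and 1736 to 2241 UMIs in leukocytes, against 4745.5 to 8258 UMIs in hormone-sensing luminal cells. A single fibroblast of 129 had 3 Ang4 UMIs. In basal cells 13 had an Ang4 UMI, 11 of them with 1 UMI. The basal shares of Ang4-positive cells, 0.0668%, 0%, 0.422% and 0.275% by library at median depths between 2827.5 and 5152.5 UMIs, serve as the background for the hormone-sensing luminal shares given with the treatments.

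Ang4 and Ang5 were detected in the same cells. Of 92 hormone-sensing luminal cells with an Ang5 UMI, 74 (80.4%, exact 95% interval 70.9 to 88.0%) also had an Ang4 UMI, against 12.5% (10.5 to 14.6%) of those without Ang5, at median depths of 6031 and 5532 UMIs. By library the counts were 6 of 6, 8 of 9, 37 of 46 and 23 of 31, or 74.2% at the least. In the other direction, 74 of 208 Ang4-positive cells (35.6%) had Ang5. None of the 265 Ang-positive cells of any class had an Ang4 UMI and 1 had an Ang5 UMI, where 1.62% and 0.666% of the remaining cells did. Of the 265 cells, 193 were basal and 4 hormone-sensing luminal. The remaining cells differ in class, so these shares do not show that the genes exclude each other within a class. These intervals, and all others here, cover counting error only, and the cells of a library are not replicates.

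Relative to Ang4, Ang5 gave 28.1, 17.3, 41.6 and 17.5 UMIs per 100 Ang4 UMIs in hormone-sensing luminal cells of corn oil replicates 1 and 2 and 4OHT replicates 1 and 2. The transcripts are 700 and 709 bases long, so length changes this ratio of counts little. The ratio was highest in 4OHT replicate 1 and alike in both replicates numbered 2, and the treatment groups overlapped.

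Between treatments, hormone-sensing luminal cells held 64 and 52 Ang4 UMIs with corn oil, against 305 and 228 with 4OHT. As levels, 49.3 and 30.6 CPM stood against 196 and 89.8 CPM, means of 40.0 ± 13.3 and 143 ± 75.4 (SD, n = 2 each), a ratio of 3.58. The groups did not overlap, and neither did those of 17% of the 7589 genes tested in this class with the 4OHT libraries higher, so nothing is read from that. The fitted log2 difference was 1.81, and 1.17 without 4OHT replicate 1. As the contrast chose the gene, no test is given.

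Cells contributed unevenly to these sums. The cell with most Ang4 UMIs held 26 of 64 (40.6%) in corn oil replicate 1, 4 of 52 (7.69%) in replicate 2, 35 of 305 (11.5%) in 4OHT replicate 1 and 15 of 228 (6.58%) in replicate 2. Without that cell in each library, an alternative chosen after the data were seen, the levels were 29.4, 28.3, 175 and 84.1 CPM and the ratio 4.48. Cells with at least 5 Ang4 UMIs numbered 1 of 151, 0 of 330, 19 of 240 and 16 of 447. The corn oil libraries thus had 1 such cell and the 4OHT libraries 35 between them. Cells with 1 UMI occurred in all 4 libraries (10, 21, 28 and 45 cells). Such counts were not made for all other genes, so nothing is read from the difference between treatments.

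**Figure D2:**
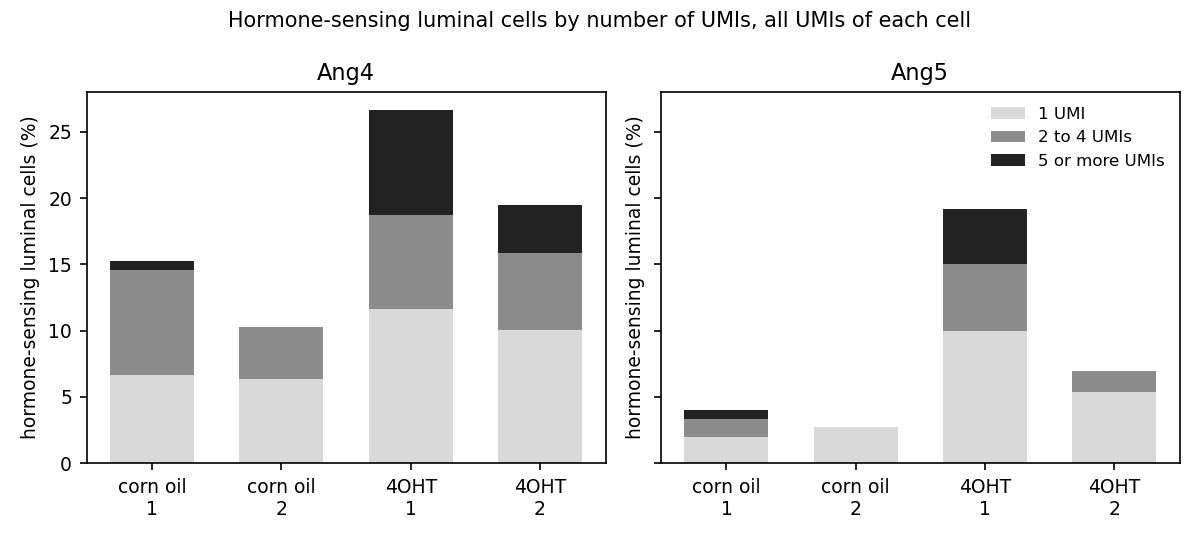
Share of hormone-sensing luminal cells (y axis, percent) with 1, 2 to 4, or 5 or more UMIs of Ang4 (left) and Ang5 (right) in each library (x axis), without thinning. For Ang4 the darkest segment, 5 or more UMIs, is 0.662% and 0% of cells with corn oil, and 7.92% and 3.58% with 4OHT.

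The share of hormone-sensing luminal cells with an Ang4 UMI was 15.2%, 10.3%, 26.7% and 19.5% in the 4 libraries, at median depths of 8258, 4745.5, 6152 and 5083 UMIs. At an equal depth of 2000 UMIs, which left out 0, 4, 4 and 11 shallower cells, the shares were 5.96% (exact 95% interval 2.76 to 11%), 6.44% (4.03 to 9.68%), 17.4% (12.8 to 22.8%) and 12.2% (9.24 to 15.6%). The corn oil libraries lay close together and below both others. The share of all genes that separate the groups in this way at equal depth was not counted, so nothing is read from the separation. All 4 libraries lay above the basal share of 0 to 0.229% at the same depth.

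**Figure D3:**
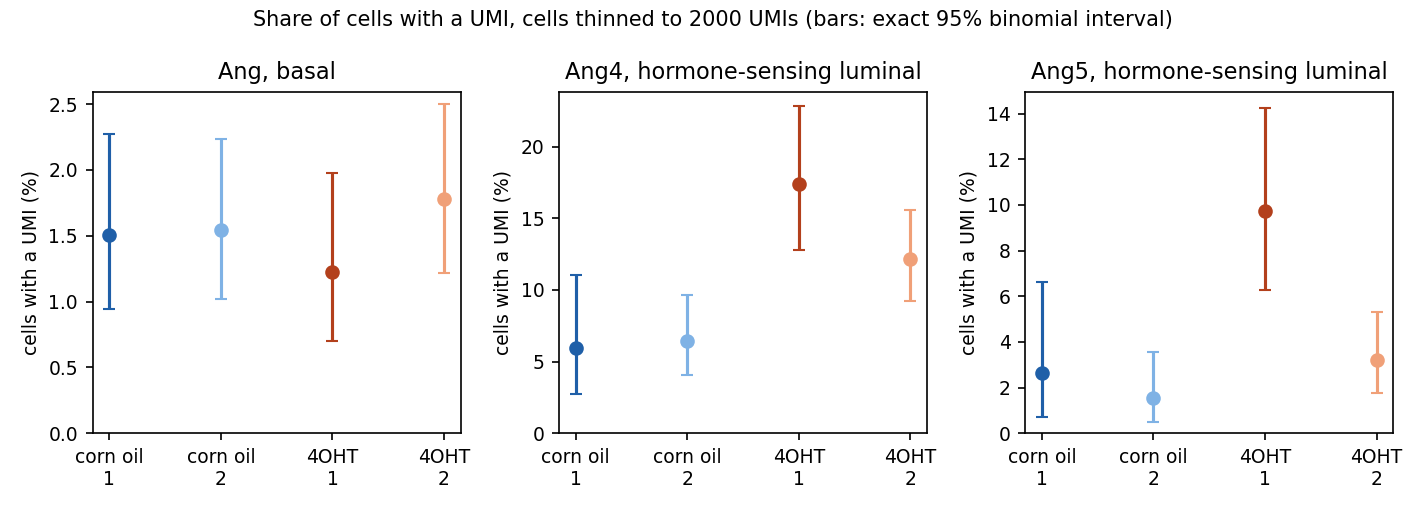
Share of cells with a UMI (y axis, percent, starting at 0, with a scale of its own in each panel) after every cell was thinned to 2000 UMIs, for Ang in basal cells and for Ang4 and Ang5 in hormone-sensing luminal cells, by library (x axis), with exact 95% binomial intervals for counting error. For Ang4 the shares are 5.96% and 6.44% with corn oil and 17.4% and 12.2% with 4OHT, and for Ang the 4 shares lie between 1.22% and 1.78%.

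Ang5 in hormone-sensing luminal cells gave 18 and 9 UMIs with corn oil and 127 and 40 with 4OHT. The mean levels were 9.59 ± 6.07 and 48.8 ± 46.7 CPM (SD, n = 2 each), a ratio of 5.09. The fitted log2 difference was 2.32, without a test. Most of that lay in 4OHT replicate 1, at 81.8 CPM, whereas 4OHT replicate 2 at 15.7 CPM was close to corn oil replicate 1 at 13.9 CPM. Without 4OHT replicate 1 the fitted log2 difference was 0.75. After thinning, 2.65%, 1.53%, 9.75% and 3.21% of cells had an Ang5 UMI.

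Markers of other cells moved with the library in which Ang4 and Ang5 were highest. In the hormone-sensing luminal class the 7 fibroblast markers summed to 243, 54.1, 1349 and 238 CPM in corn oil replicates 1 and 2 and 4OHT replicates 1 and 2. Nearly all of it was Dcn (243, 50.6, 1325 and 237 CPM), and the others were low, with Col1a1 at most 1.29 CPM and Col3a1 at most 3.22 CPM. Pdgfra (8.37 CPM) and Lum (6.44 CPM) were detected in 4OHT replicate 1 alone, and Dpt at 0, 0.588, 3.22 and 0 CPM. The 11 leukocyte markers summed to 2.31, 6.47, 113 and 2.76 CPM, led in 4OHT replicate 1 by Cd74 at 94.6 CPM, with Lyz2 at 0 in every library. Ptprc (2.58 CPM) and Coro1a (5.15 CPM) were detected in 4OHT replicate 1 alone, and Fcer1g was highest there at 4.51 CPM. The 8 endothelial markers were highest in 4OHT replicate 2 (18.5, 54.7, 21.9 and 163 CPM), the 10 hormone-sensing markers ranged from 4130 to 5118 CPM, and all 6 Paneth and goblet markers were at 0. The part of these in the Ang4 and Ang5 values was not tested.

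In the other classes Ang4 was at 1.10 and 1.98 CPM with corn oil and 1.79 and 17.5 CPM with 4OHT in luminal progenitors, where the groups overlapped (7.33% of 10120 genes did not, with 4OHT higher) and the fitted log2 difference fell from 2.77 to 0.26 without 4OHT replicate 2. In basal cells, the class in which Krt5 drives the Cre, 1 and 0 Ang4 UMIs stood against 6 and 9, too few for the filter on low counts (13% of 10788 genes tested there had groups that did not overlap, with 4OHT higher). Over all cells Ang4 was at 3.80 and 3.76 CPM with corn oil and 15.1 and 18.3 CPM with 4OHT. Hormone-sensing luminal cells made up 4.30%, 7.80%, 5.14% and 8.25% of cells in the 4 libraries, whose part in that sum was not tested, and 9.48% of the 12972 genes tested over all cells had groups that did not overlap with 4OHT higher.

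Ang in basal cells did not separate by treatment. Corn oil libraries gave 63 and 47 UMIs and 4OHT libraries 41 and 70, which are 7.49 ± 0.42 and 8.77 ± 2.63 CPM (SD, n = 2 each). The 4OHT libraries were the lowest and the highest of the 4. The fitted log2 difference of 0.30 became -0.16 without 4OHT replicate 2. After thinning, 1.5%, 1.54%, 1.22% and 1.78% of basal cells had an Ang UMI, against 0 to 0.24% of luminal progenitors.

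In the treatment fits of all genes, edgeR called 0 of 12972 genes over all cells (0%; 271 at an unadjusted p under 0.05, and 15 by DESeq2) and 0 of 10788 in basal cells (0%; 465, and 38 by DESeq2). It called 0 of 10120 in luminal progenitors (0%; 166, and 1, the casein gene Csn1s1, by DESeq2) and 1 of 7589 in hormone-sensing luminal cells (0.0132%; 240, and 7 by DESeq2). That gene was Ctsr, at 1.54, 3.53, 58.6 and 51.2 CPM (log2 4.29, edgeR adjusted p = 0.0383), a cathepsin gene named after its values were seen, and its call was lost with cells thinned to 2000 UMIs. Ctsr passed the filter on low counts through the 4OHT libraries alone, so the call carries little support. In luminal progenitors Ctsr was highest in corn oil replicate 2, at 0, 11.2, 0.952 and 1.29 CPM in the same order of libraries. Of the members, all 3 passed the filter on low counts over all cells, Ang alone in basal cells, Ang4 alone in luminal progenitors, and Ang4 and Ang5 in hormone-sensing luminal cells.

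Among the other genes of the ribonuclease A family, expression was scarce. Of 21 listed genes, 20 were in the gene table, 12 of these had 0 UMIs in every library, and 5 reached 100 UMIs: the 3 members, Rnase4 (3013) and Rnase1 (321), the gene of pancreatic ribonuclease. Among the 3 epithelial classes Rnase1 was highest in luminal progenitors (5.98 ± 1.90 CPM, SD, n = 4) and higher there than in basal cells (log2 1.75, edgeR adjusted p = 0.00047). Endothelial cells gave 805, 41.6, 6.66 and 55.7 CPM in the 4 libraries, from 21, 11, 1 and 22 UMIs. Ang2, a further angiogenin copy, had 26 UMIs, 14 of them in 4OHT replicate 1. Of 23 cells with Ang2, 11 (47.8%) had Ang4.

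The genes whose products act with angiogenin had UMIs in all 3 classes, but at unlike levels. Egfr was at only 1.93 ± 0.895 CPM in hormone-sensing luminal cells and Fst at 5.56 ± 2.40 CPM in luminal progenitors (SD, n = 4 each). Rnh1, the ribonuclease inhibitor, was at 91.3 ± 5.95 CPM in basal cells, 180 ± 11 in luminal progenitors and 264 ± 33.2 in hormone-sensing luminal cells (SD, n = 4 each), and was higher in hormone-sensing luminal than in basal cells by a log2 of 1.55 (edgeR adjusted p = 9.95e-09). Plxnb2, the receptor, was at 23.2 ± 3.34, 23.4 ± 4.13 and 37.1 ± 5.03 CPM and was higher in hormone-sensing luminal than in basal cells (log2 0.71, edgeR adjusted p = 0.00114). Egfr, a growth factor receptor also described as binding a human ribonuclease, and Fst, a secreted activin antagonist reported to bind angiogenin, were lower there (log2 -4.23 and -3.66, both called by edgeR). Between treatments none of those tested was called by edgeR, which were 3 in hormone-sensing luminal cells, without Egfr, and all 4 in the other classes.

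Of 11 genes that accompany Ang4 in the gut, only Reg3g, a secreted lectin that acts on bacteria, had counts enough to be tested in any comparison. It was at 51.7, 23.5, 93.4 and 121 CPM in hormone-sensing luminal cells and below 1 CPM in every basal sum, and was higher in hormone-sensing luminal than in basal cells (log2 7.68, SE 0.57, edgeR adjusted p = 9.14e-09). The filter on low counts let Reg3g in through its hormone-sensing luminal sums alone, so that call carries little support. Between treatments in hormone-sensing luminal cells Reg3g was not called (log2 1.52, SE 0.36, edgeR adjusted p = 0.722). Lyz1, the Paneth cell lysozyme, had 0 UMIs in all 3 classes.

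The defence genes of the gland lay in another class than Ang4. Of 16 such genes, 10 were tested between both luminal classes and all 10 were higher in luminal progenitors than in hormone-sensing luminal cells, with a median log2 of 5.15 (all genes 0.02). Of all genes tested there, 24.6% were higher. Ltf and Wfdc18 belong to the genes that set the class, so that their direction was fixed by it, and they count in the 10 and in the median. Outside the rule, Spp1 (osteopontin) was higher by a log2 of 6.12 and Lcn2 (lipocalin 2) by 5.20 (both called by edgeR). Of the 11 cytokine receptors and signalling genes of pathways that induce Ang4 in other tissues, 10 were tested between hormone-sensing luminal and basal cells, and 4 were higher and 4 lower, where 27.3% and 32.4% of all genes were. Il1r1, the interleukin 1 receptor, was higher (log2 3.22, edgeR adjusted p = 3.71e-05), as was Il13ra1, a chain of the interleukin 13 receptor (log2 1.10, edgeR adjusted p = 8.57e-06), and Tlr2, a receptor for bacterial lipoproteins, was lower (log2 -2.68, edgeR adjusted p = 2.51e-05). Between treatments edgeR called none of the 6 to 10 that were tested in a class or over all cells.

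Likeness of pattern was measured as Pearson's r of log2(CPM + 1) over the 12 sums of class and library, among 6166 genes. It mainly reflects the class, and the 12 sums are not independent, since 3 share each library. Nearest to Ang4 were Cyp3a57 (r 0.97, a cytochrome P450), Cdo1 (0.97, cysteine dioxygenase), Cldn10 (0.97, a claudin), Reg3g (0.97) and Ang5 (0.97). Nearest to Ang5 were Ang4 (0.97), Slc5a5 (0.96, the sodium iodide symporter), Ido1 (0.95, which degrades tryptophan), Slc5a6 (0.95, a vitamin transporter) and Pgam5 (0.95, a mitochondrial phosphatase). In hormone-sensing luminal cells Slc5a5 stood at 32.4, 14.7, 108 and 26.8 CPM, which is the same order of libraries as Ang5 except that corn oil replicate 1 and 4OHT replicate 2 changed places. Nearest to Ang were Ddit4 (0.99, a stress-induced regulator of mTOR), Cda (0.99, cytidine deaminase), Irx4 (0.99, a homeobox factor), Cxcl12 (0.98, a chemokine) and Cnn1 (0.98, calponin of contractile cells), all highest in basal cells, while Rnase4 ranked 180 (r 0.93).

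Ang4-positive hormone-sensing luminal cells were then compared with Ang4-negative ones of the same library at 2000 UMIs per cell, with library as a block. The comparison had been planned for luminal progenitors and was moved after the data showed where Ang4 lies. It rested on 9, 21, 41 and 53 positive cells in the 4 libraries, and called 156 of 1902 genes (8.2%), 52 higher (2.73%) and 104 lower (5.47%) in positive cells. Without corn oil replicate 2, 4OHT replicate 1 or 4OHT replicate 2 the number was 55, 45 and 57, and DESeq2 called 70. With a mean of at least 20 CPM as the filter instead, 33 of 4068 genes were called, 11 of them higher. The filter on low counts let in 9 of the 52 higher genes that the negative sums alone would not have passed, and 13 of the 104 lower genes that the positive sums alone would not have passed. For such genes the choice favours a difference, and they include 6 of the 12 genes named as higher (Ang5, Tmx2, Slc29a1, Hsph1, Lage3 and Capsl) and all 6 named as lower. Ang5 differed most: positive cells gave 333, 71.4, 415 and 94.3 CPM and negative cells 7.04, 3.28, 12.8 and 6.53 CPM, so that each positive value was above each negative one. The log2 difference was 4.50 (SE 0.40, edgeR adjusted p = 2.96e-09), and it was called in all 8 alternatives that gave Ang5 an adjusted p. As the filter on low counts favoured a difference for Ang5, this call and its repeats carry little support.

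**Figure D4:**
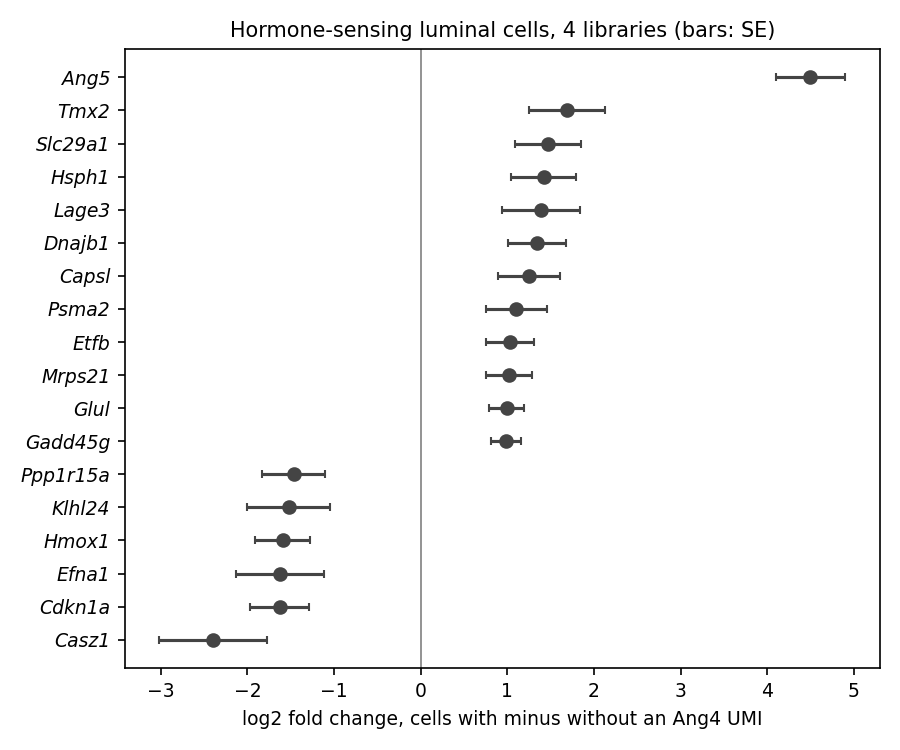
Log2 fold change between hormone-sensing luminal cells with and without an Ang4 UMI (x axis, bars give the standard error, 8 sums from 4 libraries) for the 12 largest rises and 6 largest falls among called genes (y axis). Ang5 at 4.50 lies apart from the other 11 higher genes, which lie between 0.99 and 1.69.

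The other 11 genes named as higher came from several functions. For Tmx2, Slc29a1, Hsph1, Lage3 and Capsl the filter on low counts favoured a difference, so their calls carry little support. Hsph1 (log2 1.42) and Dnajb1 (log2 1.34) encode heat shock chaperones, Psma2 (1.10) a proteasome subunit, Etfb (1.03) and Mrps21 (1.02) mitochondrial proteins, Slc29a1 (1.47) a nucleoside transporter and Glul (0.99) glutamine synthetase. Tmx2 (1.69), Lage3 (1.39), Capsl (1.25) and Gadd45g (0.99), a stress-induced gene, complete the set. Their counts were small: in the 9 positive cells of corn oil replicate 1, 1 UMI equals 55.6 CPM, and Psma2 owed 35 of its UMIs in positive cells to that library. Dnajb1 had 84 UMIs in corn oil replicate 2 and 14, 13 and 56 in the others. Gadd45g, at 1444, 952, 866 and 1755 CPM in positive and 401, 344, 567 and 914 CPM in negative cells, was called in all 9 alternatives, Glul in 8 of 9, and Psma2 in 2 of 9. The other 8 were called in 3 (Lage3 and Capsl) to 6 (Dnajb1 and Mrps21) of the 8 or 9 alternatives that gave them an adjusted p. All 18 named genes kept their direction in every such alternative. They had been chosen for the same direction in all 4 libraries, so this adds no support.

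The 6 genes named as lower were Casz1 (log2 -2.39, a zinc finger factor with 0, 0, 0 and 4 UMIs in positive cells), Cdkn1a (-1.63, the cell cycle inhibitor p21), Efna1 (-1.62, an ephrin), Hmox1 (-1.59, haem oxygenase), Klhl24 (-1.52) and Ppp1r15a (-1.47, a phosphatase subunit of the stress response). Cdkn1a was at 55.6, 95.2, 24.4 and 123 CPM in positive cells and 187, 248, 187 and 243 CPM in negative cells, without overlap. Cdkn1a and Hmox1 were each called in 7 of 8 alternatives, Casz1 in 5, Ppp1r15a in 4, Klhl24 in 1 and Efna1 in 0 of 8. The positive sums alone would not have passed any of the 6 through the filter on low counts, so their calls carry little support.

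Of 9 hormone-sensing markers tested, 3 were called higher and 0 lower with Ang4, where 2.73% and 5.47% of all genes tested were. Higher were Prlr, the prolactin receptor (log2 0.70, edgeR adjusted p = 0.016, higher in 4 of 4 libraries), and Cited1, an oestrogen receptor cofactor (1.09, in 3 of 4). So was Fxyd2, an ion pump subunit that the class rule uses (0.98, in 3 of 4). Prlr was called in 5, Cited1 in 6 and Fxyd2 in 4 of 9 alternatives. Pgr, the progesterone receptor, missed the threshold at a log2 of -0.89 (edgeR adjusted p = 0.0756), with 55.6, 119, 97.6 and 104 CPM in positive and 137, 208, 179 and 151 CPM in negative cells. Reg3g, Rnh1, both cytokine receptor or signalling genes and both defence genes that were tested were not called.

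Further differences were named after their values were seen. Tmsb4x, the gene of the actin-binding thymosin beta 4, stood at 14500, 7190, 19915 and 23991 CPM in positive and 5482, 3518, 9356 and 11787 CPM in negative cells, a log2 of 0.98 (SE 0.08, edgeR adjusted p = 4.38e-10), and was called in all 9 alternatives. Ptn, a secreted growth factor, was higher by 0.77, the keratin genes Krt8 and Krt19 by 0.67 and 0.61, and Stc2, a secreted glycoprotein, by 0.97. Ptn, Krt8 and Stc2 were each called in 8 of 9 alternatives and Krt19 in 6. Ribosomal protein genes were lower, 63 of 82 tested and 0 higher. They took 34.4, 38.0, 35.8 and 35.8% of UMIs in positive cells and 41.4, 44.5, 40.1 and 41.0% in negative cells of the 4 libraries. The median log2 difference was -0.36 for ribosomal protein genes and -0.03 for all genes tested.

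The planned comparison in luminal progenitors had 5, 3, 8 and 13 positive cells. It called 257 of 5056 genes (5.08%), 17 higher (0.336%) and 240 lower (4.75%), but recovered 14.5% of the changed genes in simulated data with 27 false calls, so its genes are not named. The plan asked for the same comparison of Ang and Ang5 in luminal progenitors only where every library had 20 positive cells, which was not met. A comparison by Ang in basal cells was not run.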

How the data were processed

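The authors deposited raw UMI counts per gene and cell for 4 libraries, made with Cell Ranger 3.0.1 on mm10 with GRCm38.91, per the labels' design text. Strand handling is not given in the sources used here. Cells with at least 1000 UMIs were kept and doublets were left in the main values. Without an authors' annotation, cells were classed by summed UMIs: basal with at least 5 UMIs of Krt5, Krt14, Krt17 and Acta2 and more than 3 times those of Krt8, Krt18 and Krt19, luminal the reverse, and hormone-sensing luminal with at least 3 UMIs of Ly6d, Fxyd2 and Gpx3 and more than of Wfdc18, Csn3 and Ltf, otherwise luminal progenitor. Cells outside the classes were typed by at least 5 UMIs of marker lists.

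Counts were summed per library and class and tested with edgeR 4.0.16 (R 4.3.3; TMM, filterByExpr, quasi-likelihood F-test, Benjamini-Hochberg over all genes tested, threshold 0.05). CPM and fold changes were computed here. The library is the replicate, as 1 mouse. Thinning drew 2000 UMIs per cell. Intervals are exact Clopper-Pearson 95% intervals, a count of 0 is read against 3 counts, and both cover counting error only.

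The members and all gene lists were chosen with earlier results of these data known. Named genes were the members, up to 4 per list and comparison, the 5 nearest by correlation where the mean was 10 CPM or more, and, for Ang4-positive cells, the 12 largest rises and 6 largest falls among called genes at a mean level of 20 CPM or more with 1 direction in 4 libraries. Alternatives were DESeq2 1.42.0, its size factors, other low-count filters, stricter cell and class thresholds, removal of 674 cells with the highest Scrublet scores (scanpy 1.11.5, 0.8% per 1000 cells), thinning, leaving out each library, and the replicate number as a block. Recovery was tested on simulated counts with 200 genes changed by a log2 of 2, a fixed dispersion, and sums that otherwise differed in total count alone. The class contrast recovered 97.5% (11135 genes), the hormone-sensing treatment contrast 88% (7589 genes) and the Ang4 comparison in that class 78.5% (1911 genes). Smaller differences, such as most of those named for Ang4-positive cells, were not simulated, so these shares do not hold for them.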

Additional observations from a re-analysis of the deposited data

Results flagged for a closer look

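In 2 of 9 sets of 4 library values, each a member in a class, 1 library lay far from the others. Chance flags about 1 set in 20, and the sets mix both treatments. Ang4 in luminal progenitors was at 17.5 CPM in 4OHT replicate 2, where the other libraries lay between 1.10 and 1.98 CPM. Ang5 in hormone-sensing luminal cells was at 81.8 CPM in 4OHT replicate 1, where the others lay between 5.29 and 15.7 CPM.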

How the results depend on the processing

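The class order of Ang4 held its direction and its call in every alternative run, and so did Ang and Ang5 between hormone-sensing luminal and basal cells. The filter on low counts let each of these genes in through the class where it was high, so the repeated calls add little support. With genes of at least 20 CPM only, calls numbered 2642 (luminal progenitor against basal), 2488 (luminal progenitor against hormone-sensing luminal) and 2936 (hormone-sensing luminal against basal), as fewer genes were tested. Leaving out each library gave 5373 to 5900, 4154 to 4802 and 5811 to 6342. Ang between both luminal classes reversed to -0.057 without doublets, -0.084 with stricter classes and -0.17 without 4OHT replicate 1 (leaving out each library gave -0.17 to 0.40). Ang between treatments reversed to -0.25 over all cells and -0.16 in basal cells without 4OHT replicate 2 (ranges -0.25 to 0.54 and -0.16 to 0.65 leaving out each library).

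Counts of treatment calls were unstable, and the cause was not tested. DESeq2 gave 15 over all cells, 38 in basal cells, 1 in luminal progenitors and 7 in hormone-sensing luminal cells. Without the filter on low counts edgeR gave 93, 39 and 59 in those 3 classes, and in hormone-sensing luminal cells 0 with thinning or at least 20 CPM. Leaving out each library gave 17 to 127 in basal cells, 39 to 64 in luminal progenitors and 4 to 80 in hormone-sensing luminal cells.

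The replicate number as a block gave 0 calls over all cells, 167 in basal cells, 9 in luminal progenitors and 3 in hormone-sensing luminal cells. Deviations of same-numbered samples correlated at 0.6612, 0.7277, 0.4685 and 0.2383 in these sets, but with only 2 pairs and no label of a shared animal or batch, the numbers do not establish a pairing.

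Ang4-positive against negative hormone-sensing luminal cells gave 450 calls without thinning, 70 by DESeq2, 33 at 20 CPM or more and 45 to 121 leaving out each library. In luminal progenitors it gave 41 with DESeq2 size factors, 23 by DESeq2, 128 without doublets and 77 to 198 leaving out each library. The cause was not tested.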
